A study of Mus musculus with 2 samples.

Results

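Immediate early genes are transcribed within minutes of a signal at the cell surface, without new protein synthesis, and 10 of them are described here in the embryonic mouse ureter: Egr1, Egr2, Egr3, Nr4a1, Nr4a2, Nr4a3, Ier2, Ier3, Dusp1 and Btg2. They were chosen by symbol, with earlier results of these data known. Each probe that carried one of these symbols was taken, which gave 11 of the 39429 probes on the array and 10 of its 30011 gene names. Of the 10 genes, 8 were measured well enough to be tested, and Egr3 and Nr4a3 were not above background. Egr1 was the lowest of the 8 in the mutant ureters, at 1.83-fold less than in the controls, followed by Egr2 at 1.54-fold and Nr4a1 at 1.42-fold less. Dusp1 and Ier2 were also lower in the mutant on both arrays. So was Btg2, though at -0.019 on array 2 its sign there is not distinguished from 0. Ier3 was higher on both, and Nr4a2 had opposite signs. None of the 8 passed the test across all genes.

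The ureters came from NMRI mouse embryos at E13.5. Mutant pools carried the transgene Pax2-cre/+ and were Fgfr2(fl/fl), while control pools were Fgfr2(fl/?) with no Cre allele listed. Both were Fgfr1(fl/?), so that all carried floxed alleles of both receptor genes. The question mark stands for a wild-type or a floxed allele, and mutant ureters of both Fgfr1 genotypes were combined into a pool. How many embryos made up a pool is not known here. On array 1, of female pools, the mutant was labelled with Cy5 and the control with Cy3. On array 2, of male pools, the labelling was the other way round. The question addressed is how transcript levels differ once Fgfr2, a receptor for fibroblast growth factors (FGFs), is deleted in cells in which the Pax2-driven Cre acts. The floxed Fgfr1 alleles of the mutant pools were exposed to the same Cre, and the controls list none, so that the contrast is not one of Fgfr2 alone. The share of ureter cells in which the Cre acted was not measured here, and in RNA of a whole organ fewer cells of a type and less RNA per cell cannot be told apart. Each array gives 1 ratio, and all ratios are log2 of mutant over control.

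Both arrays held 4 spots of each probe, no spot was saturated, and 67.8% to 77.0% of probes were well above background in each channel. The number of arrays limits the precision. The 2 Fgfr2 probes had ratios of 0.27 and 0.057 and of 0.081 and 0.091 on arrays 1 and 2. Their place relative to the floxed exons is not known here, so they do not check the genotype. Xist, which is made from the inactive X chromosome of female cells, was at a log2 level of 12.42 in both channels of the female array at its brighter probe. The male mutant pool was at 8.39, with a ratio of -1.60 to the male control pool, so these pools were unequal in it. Whether the pools labelled male, above all the control pool, held RNA of female embryos was not tested. Array 2 therefore differs from array 1 in sex, dye orientation and this imbalance, and these cannot be told apart. For that reason each gene is given on each array.

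Early growth response (Egr) proteins are zinc finger transcription factors, and Nr4a proteins are orphan nuclear receptors that bind DNA without a known hormone. Receptor tyrosine kinases such as the FGF receptors induce both families through the ERK kinase cascade, which phosphorylates ternary complex factors that sit beside serum response factor on CArG boxes. Calcium and cyclic AMP act through CREB on cyclic AMP response elements. Ier2 and Ier3 are short-lived early response proteins, Dusp1 is a nuclear phosphatase that inactivates MAP kinases, and Btg2 is an antiproliferative protein induced by the same stimuli. Mechanical dissection and tissue handling can also induce these genes. Their transcripts are short-lived, so that their levels depend on the moment of harvest.

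Egr1, the most studied factor of its family, was lower in both mutant pools. Its probe lies on chromosome 18 from 35024395 to 35024454 (mm9, as the array design gives it). On the normalised log2 scale it was at 13.69 in the female mutant and 14.43 in the female control, and at 13.32 in the male mutant and 14.32 in the male control. Both mutant levels were therefore below both control levels. The ratios were -0.74 on array 1 and -1.0 on array 2, and each of the 7 spots kept was below 0, from -0.78 to -0.72 on array 1 and from -1.08 to -0.88 on array 2. The mean ratio was -0.87 ± 0.18 (SD, n = 2 arrays), with a standard error of 0.155 and a 95% interval from -1.23 to -0.51 in the limma fit. The unadjusted limma p was 0.000684, and the adjusted p = 0.397 did not pass the threshold of 0.05. Among the 20909 genes tested, 8 had a lower mean ratio than Egr1, and 5 genes, itself included, were at least as low on both arrays.

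Egr2, which is also known as Krox20 and is required for hindbrain segmentation and myelination, was the second lowest of the 8 tested genes. Its probe on chromosome 10, from 67004798 to 67004857, was at 7.89 and 7.86 in the mutant pools and at 8.60 and 8.39 in the controls (array 1, then array 2). The mutant and control levels did not overlap. The ratios were -0.71 and -0.53, with a mean of -0.62 ± 0.13 (SD, n = 2 arrays) and a 95% interval from -0.98 to -0.27. The probe was dim, and its mean ratio reached -0.86 under other processing. All 8 spots were below 0. Its limma test gave an adjusted p = 0.748, with an unadjusted limma p of 0.00401.

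Egr3, the close relative of Egr2, was not well above background in any spot of either channel. Its raw signal was 70.3 in the mutant (Cy5) and 30.6 in the control (Cy3) on array 1, next to local backgrounds of 67.1 and 22.6. On array 2 the raw signal was 36.9 in the mutant (Cy3) and 71.5 in the control (Cy5), next to 21.6 and 64.4. The brighter channel was the Cy5 one both times, and so was its background. No ratio of Egr3 is given. Its probe is at 70479222 to 70479281 of chromosome 14.

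Of the Nr4a receptors, Nr4a1 (Nur77) was lower in both mutant pools. Its probe on chromosome 15, from 101105071 to 101105130, was at 12.68 in the female mutant, 13.07 in the female control, 12.67 in the male mutant and 13.29 in the male control. The mutant pools were nearly equal and both lay below the controls. The ratios were -0.39 and -0.62, and all 8 spots were below 0. The mean was -0.51 ± 0.16 (SD, n = 2 arrays), with a 95% interval from -0.87 to -0.15. The limma test gave an unadjusted p of 0.0121 and an adjusted p = 0.996.

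Nr4a2 (Nurr1), best known from dopaminergic neurons, had 2 probes on chromosome 2 that did not give the same answer. The brighter probe, from 56960699 to 56960758, was at 10.14 and 10.42 in the female mutant and control and at 10.64 and 10.42 in the male ones. Its ratios were -0.28 and 0.22. The other probe, from 56959637 to 56959696, was at 9.47 and 9.37 in the female and at 9.22 and 9.63 in the male mutant and control. Its ratios were 0.10 and -0.41, so that the signs were exchanged between the probes. Within an array the spots of a probe were close, with SDs from 0.048 to 0.112, and all 4 spots of the brighter probe were below 0 on array 1 and none on array 2. The mean ratios were -0.031 ± 0.36 and -0.16 ± 0.36 (SD, n = 2 arrays), and the adjusted limma p was 1.0 for both. The interval of the brighter probe ran from -0.44 to 0.38.

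Nr4a3 (Nor1), the third receptor of the family, was not well above background in any spot. Its raw signals of 71.9 in the mutant and 28.1 in the control on array 1, and of 28.8 and 67.3 on array 2, followed the dye as those of Egr3 did. Its probe spans chromosome 4 from 48080690 to 48083876, and no ratio is given.

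**Figure D1:**
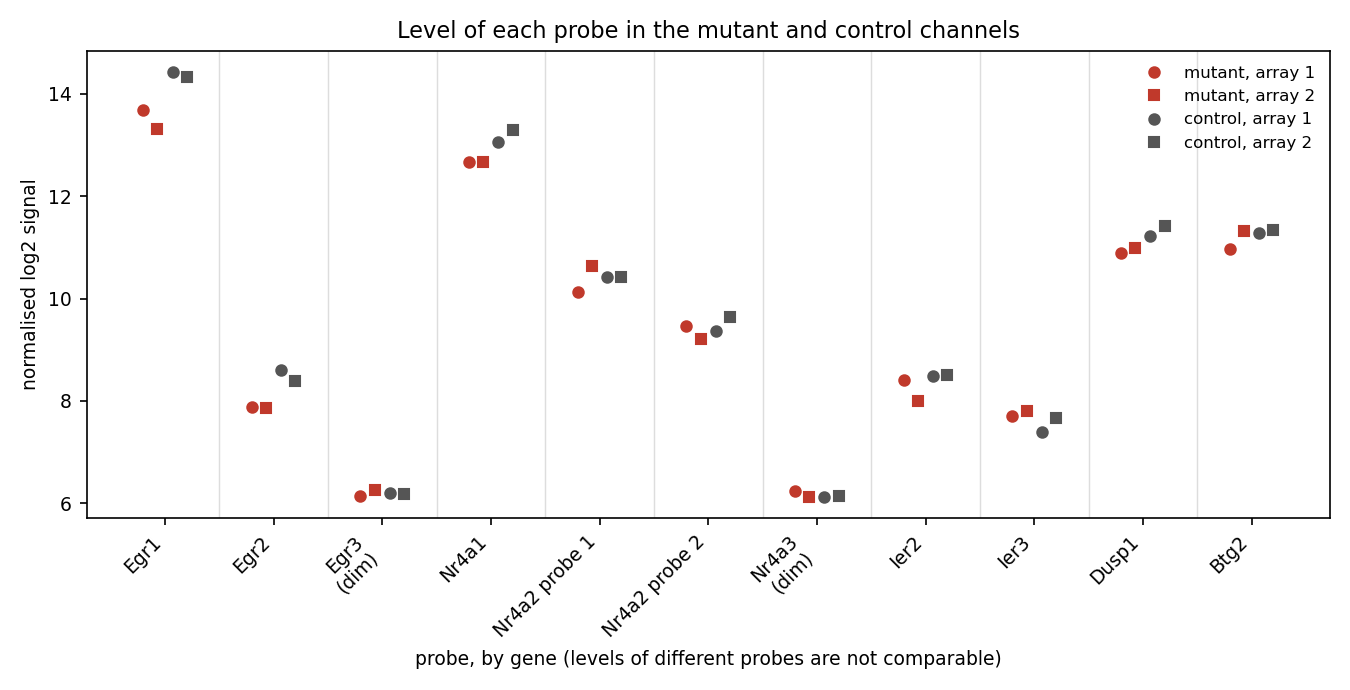
Normalised log2 level of each probe of the 10 genes in the mutant and control channels of both arrays, with 1 point per channel; levels of different probes cannot be compared. Egr1 was at 13.69 and 13.32 in the mutant and at 14.43 and 14.32 in the control channels, and the probes of Egr3 and Nr4a3 were not above background.

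Dusp1, the phosphatase that ends MAP kinase signals in the nucleus, had the smallest difference between the arrays among the genes whose mutant levels lay below the controls. Its probe, on chromosome 17, was at 10.89 and 11.00 in the mutant pools and at 11.22 and 11.43 in the controls. The design maps only the stretch from 26642526 to 26642536 of this probe. The ratios were -0.33 and -0.43, all 8 spots were below 0, and the mean was -0.38 ± 0.073 (SD, n = 2 arrays; 95% interval -0.73 to -0.031). The limma test gave an unadjusted p of 0.0368 and an adjusted p = 1.0.

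Ier2, a nuclear early response protein, differed from its control mainly on array 2. Its probe on chromosome 8, from 87186214 to 87186273, was at 8.42 in the female mutant and 8.50 in the female control, and at 8.0 and 8.51 in the male ones. Both mutant levels were below both control levels, though the female difference was small. The ratios were -0.078 and -0.51. The spots on array 1 had an SD of 0.204, larger than that ratio, and the mean was -0.29 ± 0.30 (SD, n = 2 arrays; 95% interval -0.69 to 0.099). Btg2 showed the opposite order of the arrays, with ratios of -0.32 and -0.019. Its probe on chromosome 1, from 135972094 to 135972153, was at 10.97 and 11.33 in the mutant and at 11.29 and 11.35 in the control pools, and the groups overlapped. On array 2 only 2 of its 4 spots were below 0, with an SD of 0.258, so its sign there is not distinguished from 0. The mean was -0.17 ± 0.21 (SD, n = 2 arrays; 95% interval -0.54 to 0.20), and -0.31 with median centring.

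Ier3, an early response protein that acts on cell survival, was the only one of the 8 tested genes with a higher level in the mutant on both arrays. Its probe on chromosome 17, from 35959528 to 35959587, was dim, at 7.71 and 7.81 in the mutant and 7.39 and 7.67 in the control pools. Both mutant levels lay above both control levels, narrowly so between the female mutant and the male control. The ratios were 0.33 and 0.14, and 7 of 8 spots were above 0. The mean was 0.23 ± 0.13 (SD, n = 2 arrays; 95% interval -0.12 to 0.59), 1.18-fold above the control. The unadjusted limma p was 0.161 for Ier3, 0.121 for Ier2 and 0.318 for Btg2, and the adjusted p was 1.0 for each.

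**Figure D2:**
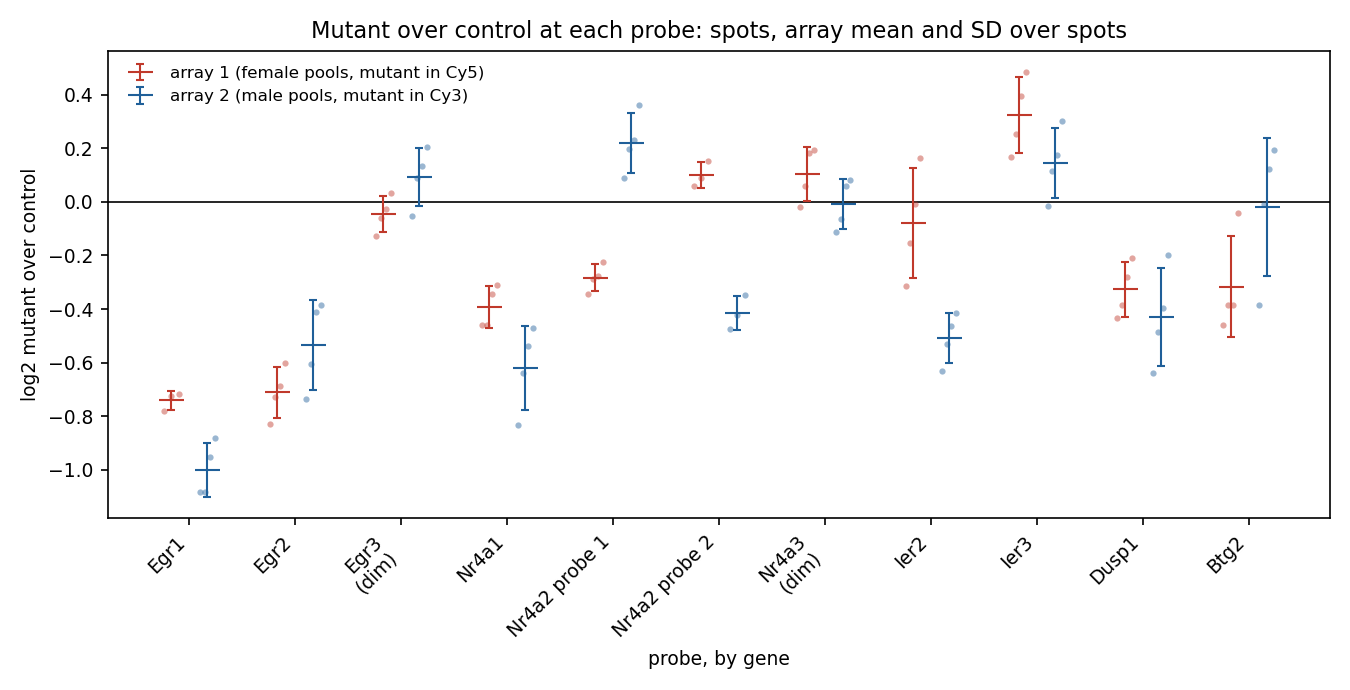
Log2 ratio of mutant over control of each probe on array 1 (female pools) and array 2 (male pools), with the single spots as small points. Egr1 (-0.74 and -1.0), Egr2 (-0.71 and -0.53) and Nr4a1 (-0.39 and -0.62) were below 0 on both arrays, and the 2 probes of Nr4a2 changed sign in opposite ways.

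Promoter sequence was compared for the 7 of the 10 genes with an entry among the RefSeq promoters of GRCm38.p6, of which the 250 bases before the gene start were used in 11 windows, 5 of them for Egr2. Egr1, Egr3 and Ier2 had no entry there and were not searched. Both strands were searched for the CArG box (by that name), the cyclic AMP response element TGACGTCA, its core TGACG, the AP-1 site TGANTCA, the Egr site GCGNGGGCG and the Nr4a monomer site AAAGGTCA. The core lies within the full element, so a full element counts for the core as well. Only exact matches were counted, so sites that differ from a motif by a base were not sought. Whether motifs go with the direction of a ratio was not tested, and none of the genes passed the limma test. Sequences of Nr4a1 and Dusp1, both lower on both arrays, are shown with that of Ier3, which was higher. With them are 30 bases of Egr2 that hold a CArG box. Each runs 5′ to 3′ on the gene's strand, with matches in capitals.
Nr4a1, chr15:101266596-101266845, + strand: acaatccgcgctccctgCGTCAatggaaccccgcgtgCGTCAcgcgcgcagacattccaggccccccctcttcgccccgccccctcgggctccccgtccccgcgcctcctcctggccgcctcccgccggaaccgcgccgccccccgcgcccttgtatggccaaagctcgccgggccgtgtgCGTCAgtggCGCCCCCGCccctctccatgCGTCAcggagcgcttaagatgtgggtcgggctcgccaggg
Dusp1, chr17:26508473-26508722, - strand: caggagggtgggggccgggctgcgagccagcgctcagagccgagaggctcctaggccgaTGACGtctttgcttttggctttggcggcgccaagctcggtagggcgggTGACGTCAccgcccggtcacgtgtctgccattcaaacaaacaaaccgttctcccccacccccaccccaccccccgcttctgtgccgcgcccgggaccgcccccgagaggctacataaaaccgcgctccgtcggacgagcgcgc
Ier3, chr17:35821463-35821712, + strand: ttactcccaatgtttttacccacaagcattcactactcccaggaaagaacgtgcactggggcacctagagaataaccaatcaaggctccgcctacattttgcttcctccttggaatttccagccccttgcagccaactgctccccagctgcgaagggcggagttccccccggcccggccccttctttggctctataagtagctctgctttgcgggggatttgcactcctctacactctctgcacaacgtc
Egr2, chr10:67537793-67537822, + strand: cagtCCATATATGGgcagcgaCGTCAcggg
Nr4a1 had the core 4 times and an Egr site at -60, counted from the gene start. Dusp1 had a full response element at -143 and 1 more core. In Ier3 no exact match to any of the 6 motifs was found in the window. The CArG box shown for Egr2 begins at -72 from 1 of its annotated starts, with a core just after it. From other starts the same box begins at -73 and -133. Another CArG box of Egr2 begins at -72 in a further window, which held no core.

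Among the 7 genes with a window, the core was present in 6, which were Egr2, Nr4a1, Nr4a2, Nr4a3, Dusp1 and Btg2, and in 17.7% of the 32817 promoter windows of the table. The full cyclic AMP response element was present in Dusp1 and Btg2 and in 1.55% of all windows. The Egr site was present in Nr4a1, Nr4a2 and Btg2 and in 4.7% of all windows. An exact CArG box was present in Egr2 alone of these 7, with Egr1 not searched, and in 1.47% of all windows. The AP-1 site and the Nr4a site, found in 6.75% and 1.34% of all windows, were in none of the 7. Genes with more than 1 window, such as Egr2, had more chances of a match. Genes with the core in this window included Nr4a2, whose ratios had opposite signs.

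The 8 genes were set against all 20909 genes tested, as counts without a test of the list. The list was chosen with earlier results of these data known, so counts of its members are descriptions only. Lower on both arrays were 6 of the 8, against 21.4% of all genes, and 1 of the 8 was higher on both, against 22.1%. Among the 6 lower ones, Btg2 was at only -0.019 on array 2. With the arrays centred on their medians and no loess, 6 of the 8 were again lower on both, and the split over all genes was 38.1% lower and 15.5% higher. With the processed signals of the scanner software, 5 of the 8 were lower on both, against 25.2% of all genes. Both mutant levels were below both control levels for 5 of the 8 (Egr1, Egr2, Nr4a1, Ier2 and Dusp1), against 11.5% of all genes. Both were above for 1, Ier3, against 12% of all genes. At least 1.5-fold lower on both arrays was 1 of the 8, Egr1, against 0.0957% of all genes. Egr2 was just outside that size, at -0.53 on array 2.

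The limma test called none of the 8 at an adjusted p under 0.05, against 6 genes or 0.0287% of all. At an unadjusted p under 0.05 there were 4 of the 8 (Egr1, Egr2, Nr4a1 and Dusp1), against 4.04% of all genes. The adjusted p ranged from 0.397 to 1.0 over the 8. An exact test of the signs of 2 ratios cannot give a two-sided p below 0.5, so that no single gene can be decided by it. The median of the 8 mean ratios was -0.34, with -0.32 on array 1 and -0.47 on array 2, and the median of all genes was 0.0044. All 8 genes were well above background in both mutant and both control channels, so none entered the test through one group only.

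**Figure D3:**
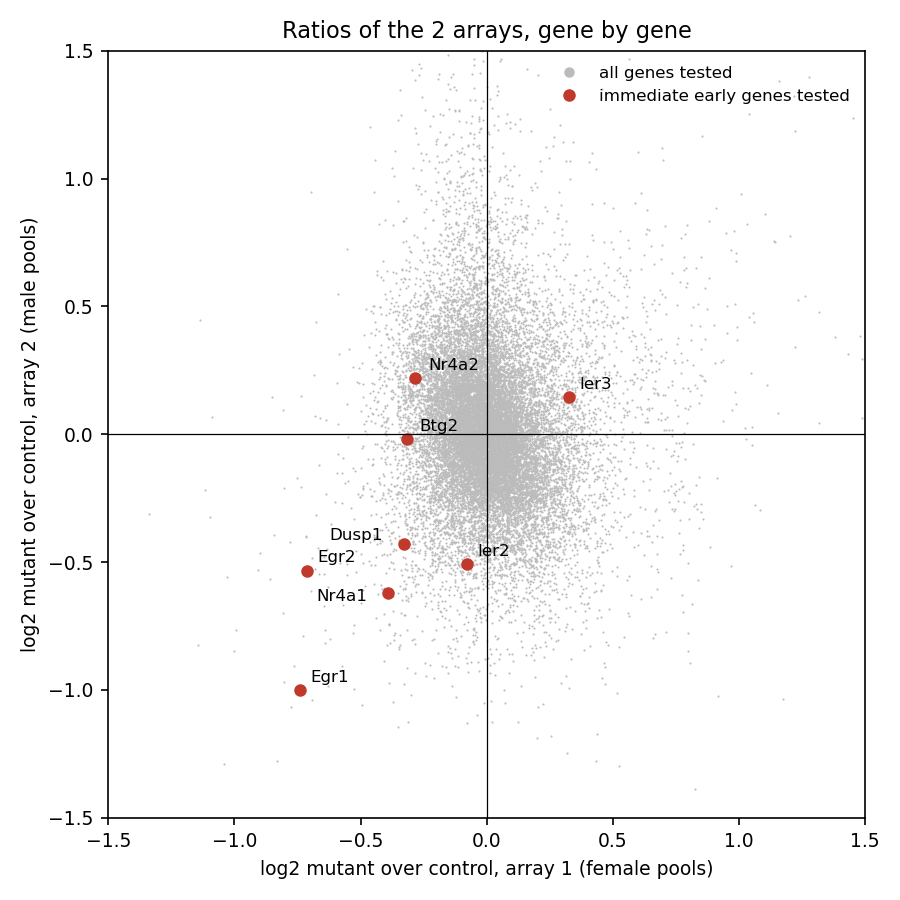
Ratio on array 2 (male pools) against the ratio on array 1 (female pools) for the 20909 genes tested, with the 8 tested immediate early genes marked; 58 genes lie outside the range shown. Egr1 sits at -0.74 and -1.0, Egr2, Nr4a1, Dusp1, Ier2 and Btg2 also lie at the lower left of both axes, and Nr4a2 and Ier3 lie outside it.

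The authors' deposited table, which gives signed linear folds, also had Egr1, Egr2, Nr4a1, Dusp1 and Ier2 below the control on both arrays. On array 1 it put Egr2 lower than Egr1. The authors' deposited table gave Egr1 folds of -1.64 and -2.12, Egr2 folds of -2.04 and -1.61, Nr4a1 folds of -1.33 and -1.49, and Dusp1 folds of -1.27 and -1.35 on arrays 1 and 2. In that authors' deposited table Btg2 was at -1.26 and 1.02, so its sign on array 2 was opposite to the ratio of -0.019 above. Ier3 was at 1.46 and 1.09 and Ier2 at -1.11 and -1.57 in the authors' deposited table. Egr3 and Nr4a3 were both set to 1 on both arrays there.

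The genes with ratios nearest to those of Egr1 over the 2 arrays, by Euclidean distance, were Nhlrc4 (-0.69 and -1.04), Prr7 (-0.80 and -0.97), Mia (-0.78 and -1.07), Kcnj16 (-0.76 and -0.90) and Hkdc1 (-0.63 and -0.98). Their distances from Egr1 were 0.063 to 0.113. Clones, predicted genes and genes named only by a probe or accession were left out of this ranking. None of these 5 was an immediate early gene by the lists used here, and 2 arrays are few for judging likeness.

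Other genes of the early response, grouped by role, are given next. Of 20 other immediate early transcription factors, 19 were tested, 12 of them lower (14 with median centring) and 1 higher on both arrays. Their median mean ratio was -0.22. Egr4, the fourth Egr gene, had ratios of -0.64 and -0.48, with a mean of -0.56 (limma adjusted p = 0.855). That mean depended on the background correction, at -0.89 with a normexp offset of 10 and -1.56 with the processed signals, and Egr4 was not well above background in both groups. Fosb (-1.04 and -1.29), Fos (-1.0 and -0.85) and Jun (-0.15 and -0.94), which form the AP-1 factor, were also below 0, with limma adjusted p values from 0.140 to 1.0. Fosb and Fos were as low as Egr1 or lower in mean ratio, at -1.17 and -0.92. None of the 19 was called, and 6 had an unadjusted p under 0.05.

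Of 27 other early response effectors, 26 were tested, and the median was -0.12. On both arrays 11 were lower (16 with median centring) and 3 higher. The largest of like sign on both arrays were Ccn1, a secreted matricellular protein (-0.45 and -0.41), the kinases Sik1 (-0.22 and -0.49) and Plk3 (-0.16 and -0.50), and Nfkbiz, an inhibitor-like regulator of NF-kappaB (-0.16 and -0.45). No gene of that list was called, and 1 had an unadjusted p under 0.05. For the kinases and transcription factors that induce immediate early genes, 4 of 18 were lower on both arrays (9 with median centring) and 2 were higher, the median was -0.025, and none was called or at an unadjusted p under 0.05. The ternary complex factor Elk4 was at -0.14 and -0.23, a mean of -0.19. That mean was -0.32 with the processed signals and -0.12 with the mean of all tested probes of a gene. Rps6ka2 was at -0.0019 and -0.31, while Crem (0.11 and 0.23) and Mapk3 (0.13 and 0.073) were higher on both arrays. For partners of the Egr and Nr4a proteins, which are the Nab corepressors and the retinoid X receptors, none of 5 was lower on both (1 with median centring) and 3 were higher: Rxrb (0.46 and 0.19), Nab1 (0.11 and 0.099) and Rxrg (0.046 and 0.086). Median centring turned the mean ratios of Nab1 and Rxrg to -0.017 and -0.061 and brought that of Rxrb from 0.32 to 0.16, and none of the 5 was called or had an unadjusted limma p under 0.05.

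Feedback genes of FGF and ERK signalling share the ERK input with Egr1. They were lower on both arrays in 9 of 11 tested (10 with median centring) and higher in none (median -0.25). Spry1 (-0.49 and -1.06), Spry2 (-0.37 and -0.78) and Spred2 (-0.39 and -0.75) had ratios of the size of those of the Egr genes. None of the 11 was called, and 3 had an unadjusted limma p under 0.05. Heat shock genes, which are induced by tissue stress, were lower on both arrays in 2 of 9 tested (4 with median centring) and higher in 2. Their median was 0.066, with none called or at an unadjusted limma p under 0.05.

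Cell type markers were measured in the same channels. Sums over a list add linear signals of different probes, whose levels cannot be compared, so the brightest probes weigh most in them. All 12 ureteric epithelium markers and all 10 ureteric mesenchyme markers were well above background in every channel. Summed over the list, the epithelial markers were at 85326 and 78296 in the mutant and at 95797 and 100037 in the control pools on the linear signal scale, with 6 of 12 lower and 2 higher on both arrays. The mesenchymal markers were at 82892 and 82806 in the mutant and at 98002 and 102446 in the control pools, with 7 of 10 lower and 1 higher. The median mean ratio was -0.13 for the epithelial and -0.33 for the mesenchymal list, next to -0.34 for the 8 immediate early genes.

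Markers of blood cells had mostly positive ratios. Their sums are likewise weighted to the brightest probes. The leukocyte markers, all 14 above background in every channel, summed to 23869 and 22532 in the mutant and to 13646 and 13415 in the control pools, and 12 of 14 were higher on both arrays. The neutrophil genes S100a8 (1.98 and 2.07) and S100a9 (1.98 and 2.43) passed the limma test at an adjusted p = 0.0143. Both lost that call with median centring (adjusted p = 0.157), with dim probes left in (1.0), and with the channels fitted separately (0.0873 and 0.103). The erythroid markers, 9 of 10 above background in every channel, summed to 764753 and 708198 in the mutant and to 289069 and 543429 in the control pools, and all 10 were higher on both arrays, though none passed the limma test (lowest adjusted p = 0.418). Of the other markers, 7 of 8 neural genes (median 0.26), 5 of 8 endothelial genes (median 0.11) and 4 of 6 tested skeletal muscle genes (median 0.26) were higher on both arrays, 1 of each list was lower on both, and none was called. The endothelial count of lower genes was 3 with median centring, and that of skeletal muscle was 0. The part that these cell types had in the ratios of Egr1, Egr2, Nr4a1 and the other early genes was not tested.

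**Figure D4:**
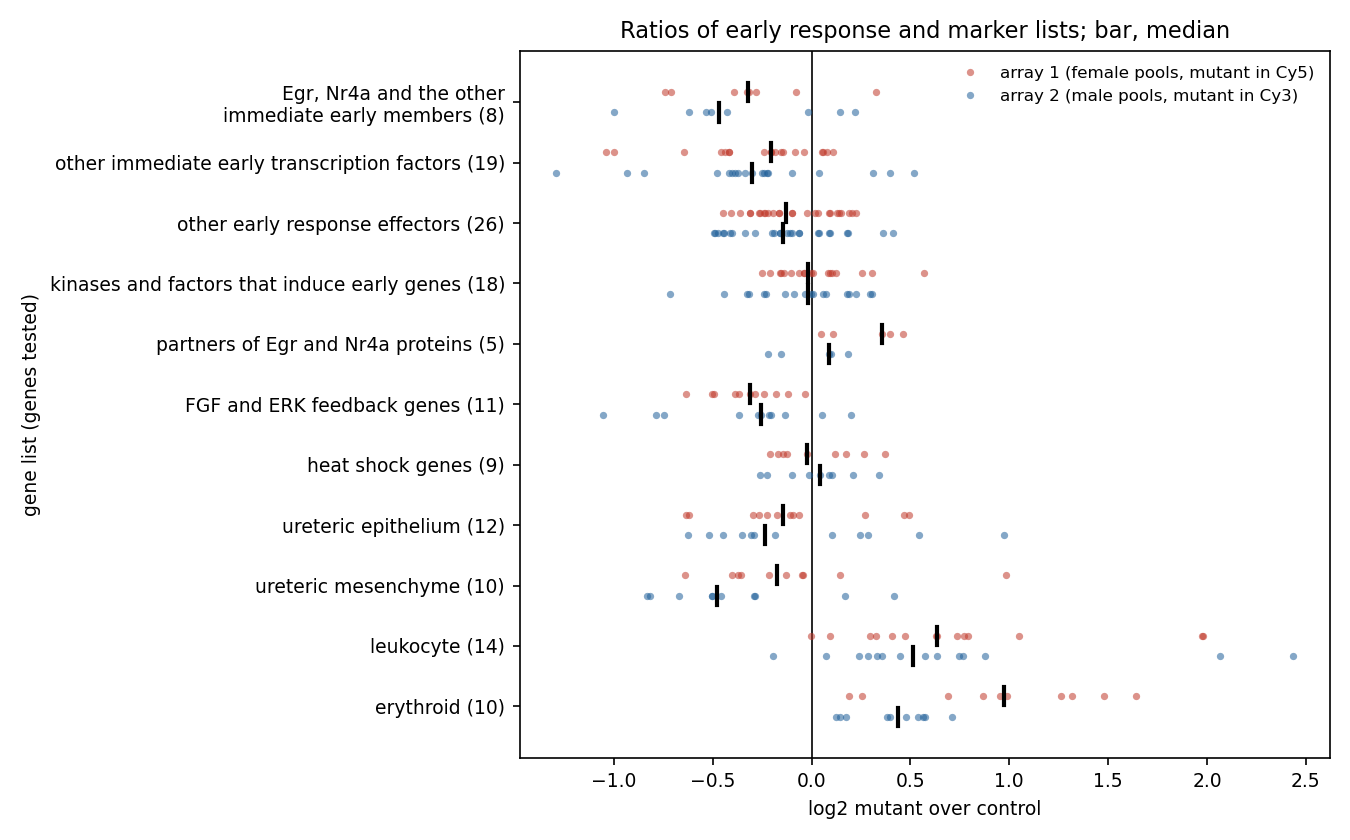
Log2 ratio of mutant over control of each tested gene, by list and array, with the median of each list on each array as a bar. The 8 immediate early genes had medians of -0.32 and -0.47, the other immediate early transcription factors of -0.20 and -0.30, the inducing kinases of -0.020 and -0.017, and the leukocyte markers of 0.63 and 0.51.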

How the data were processed

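RNA of mutant and control ureters was hybridised together on 2 two-colour arrays from 150 ng of total RNA, per the labels' protocols. The submitters' processing notes name Agilent Feature Extraction 10.7.3.1 as the quantification software. Per the file headers, spot and local background signals are intensity values before any normalization. The deposited log10 ratios of the scanner files, red over green, were used only as a check of direction. The authors' deposited series table holds a score per probe, on a signed linear fold scale, and how it was made is not stated. The direction, mutant over control, was read from its correlation across probes with the processed signals (0.973 and 0.991). The median of each column was 1, which leaves the centring unknown.

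Background was corrected with normexp (offset 50), each array was normalised by loess (span 0.3, control spots at weight 0), outlier-flagged spots (3.35% and 3.05%) were dropped and the 4 spots of a probe averaged, in limma 3.58.1 under R 4.3.3. The ratio of array 2 was turned. Levels are log2 values per channel after Aquantile normalization. Probes entered the test where over 0.5 of their spots were well above background on both arrays, in the mutant or in the control channel. The brightest such probe stood for its gene. Names were updated through RefSeq accessions of GRCm38.p6, which matched 28328 of 39429 probes. Ratios were tested against 0 with lmFit and eBayes over 20909 genes (1 residual and 6.30 prior degrees of freedom), with Benjamini-Hochberg adjustment at 0.05. The script was tested on simulated data. Nothing says how many animals a pool held. The spread of 2 arrays mixes differences of pool, sex and dye with technical noise, and these cannot be told apart. With eBayes each p-value rests on that spread and, more heavily, on the spread pooled over all genes. List counts are descriptions.

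The 10 genes, the lists and the tests were chosen with earlier results of these data known. The text names all probes of the 10 genes and the 5 genes with an official symbol nearest to Egr1. For each list it names up to 8 called genes. Without calls, it names up to 4 with the largest mean ratio of like sign on both arrays. The alternatives tried were other background, centring, filter, probe and outlier rules, the authors' table, separate channels and single arrays.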

Additional observations from a re-analysis of the deposited data

Results flagged for a closer look

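Nr4a2 was flagged because the array of female pools and the array of male pools moved in opposite ways, and did so in opposite order at its 2 probes. Opposite signs were common over all genes tested, of which 21.4% were lower and 22.1% higher on both arrays. The brighter probe had log2 ratios of -0.28 on array 1 and 0.22 on array 2, and the other probe had 0.10 and -0.41. The difference between the arrays was not tested, since each sex has 1 array, and sex and dye orientation cannot be told apart.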

How the results depend on the processing

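None of the 8 tested immediate early genes passed the limma threshold under any of the 11 alternatives that give a test, and none changed sign under them. The mean ratio ranged from -1.03 to -0.86 for Egr1, from -0.86 to -0.62 for Egr2, from -0.67 to -0.49 for Nr4a1, from -0.52 to -0.38 for Dusp1, from -0.41 to -0.29 for Ier2, from -0.31 to -0.15 for Btg2, from -0.16 to -0.031 for Nr4a2 and from 0.23 to 0.34 for Ier3. The lowest adjusted p was 0.304 for Egr1. Leaving out array 1 gave Nr4a2 a ratio of 0.22 (-0.28 without array 2), of opposite sign to the mean, and the median ratio of the members was -0.47 without array 1 and -0.32 without array 2. Without the filter on dim probes, which lets Egr3 and Nr4a3 in, that median was -0.23. The number of genes called over the whole array was 6, and 0 with median centring, without the filter or with the 4 channels fitted separately (850, 1076 and 664 at an unadjusted limma p under 0.05). It was 10 without background subtraction, 11 each with the processed signals, with probes above background in both groups and with outlier spots kept, and 14 with an offset of 10, and the cause was not tested. Median centring reversed Mapk3 to -0.051, Nab1 to -0.017, Rxrg to -0.061 and Bag3 to -0.036. A single array allows no test, so no count of calls was made when an array was left out. Of the members, 6 were lower without array 1 and 7 without array 2. With both arrays kept, 5 were lower on both with the processed signals, against 6 in the main setting. Dim probes limit what can be said of Egr3, Nr4a3 and Ier3, and the probes of Egr2 and Ier2 were also dim. Each ratio already pairs the mutant and control pools of an array. The separate fit of the 4 channels keeps that pairing through an estimated correlation between the channels of a spot.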
